A study of Homo sapiens with 5 samples.

Results

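The VHL-HIF axis was examined through the signal of every probe set that the platform's probe-to-gene table assigns to 10 gene symbols: VHL, HIF1A, EPAS1, ARNT, EGLN1, EGLN3, CA9, CA12, NDRG1 and ANKRD37. Probe sets were found for 9 of these genes, of 19775 genes with a probe set of their own, and numbered 29. CA9 had none under that rule and was not analysed here. Related human renal cell carcinoma lines, 3 in all, had been profiled on 5 Affymetrix arrays, with no treatment or added gene named in the labels: SN12C, the parental line described as non-metastatic (2 biological replicates), LM1, lung-metastatic generation 1 (1 array), and LM2, lung-metastatic generation 2 (2 biological replicates). The labels do not say whether a line is a single clone or at what oxygen tension it was grown. All values are log2 signals made by RMA, so 1 unit is a doubling, and signals of different probe sets were not set against each other.

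In normal oxygen, prolyl hydroxylases mark the alpha subunits of the hypoxia-inducible factors, and the VHL ubiquitin ligase then sends them for degradation. When oxygen is short or VHL is lost, the alpha subunits persist, pair with ARNT and switch on genes of glucose use, acid export, vessel growth and matrix modification. Loss of VHL is the best known lesion of clear cell renal carcinoma. This control acts mainly on the alpha subunit proteins, so the RNA levels below give the amount of message for each component and for the target genes, not the activity of the factors.

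Over the whole axis, LM2 differed little from SN12C, and the differences that separated the arrays all pointed down. Testing was limited to probe sets with 2 or more arrays at or above 6.03 (the 40th percentile of the deposited signals), which left 22 of the 29. The 7 others, 1 each for VHL, EPAS1, EGLN3, CA12 and ANKRD37 and 2 for ARNT, read between 4.01 and 6.11 on all arrays. For LM2 against SN12C, 0 of the 22 passed the threshold of 0.05 in limma (lowest adjusted p = 0.416), as did 0% of the 33376 probe sets tested, and 2 of the 22 had an unadjusted p under 0.05, against 3178 of all those tested. In 9 of the 22, or 40.9%, both LM2 arrays lay below both SN12C arrays, against 13.0% of all tested probe sets. In 0 of the 22 both LM2 arrays lay above both SN12C arrays, against 23.7% of all tested. The 9 belonged to 6 genes, HIF1A, EPAS1, ARNT, CA12, NDRG1 and ANKRD37, and probe sets of 1 gene are not independent. As the axis genes were chosen with earlier results of these data known, these shares are no independent support. The median difference over the 22 was -0.13 log2 units, against 0.03 over all tested probe sets, and the 22 ranged from -0.82 to 0.46. In bulk RNA such as this, fewer cells with a message and less message per cell cannot be told apart.

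**Figure D1:**
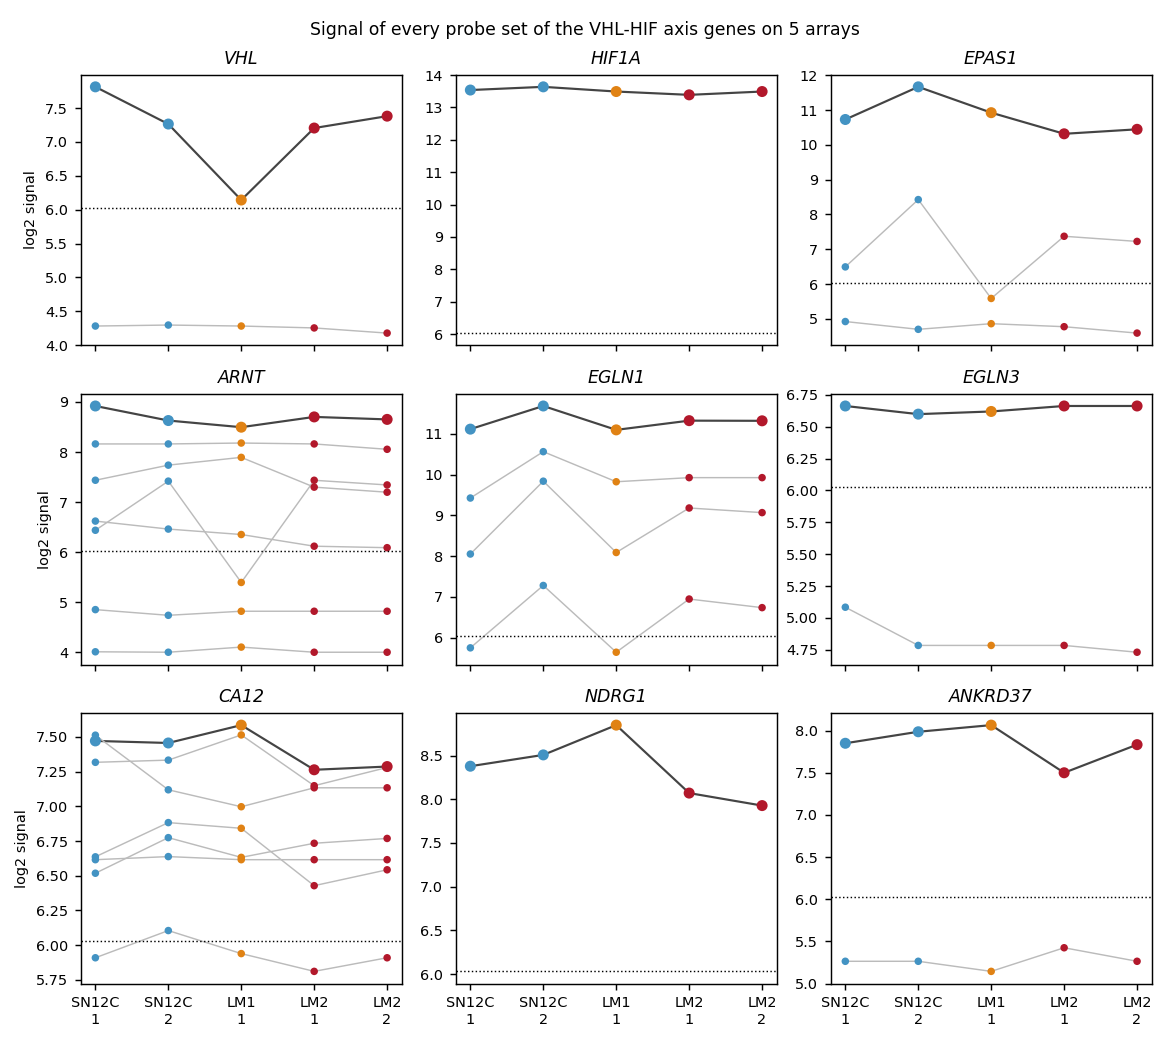
Log2 signal (vertical axis) of each probe set of 9 genes on the 5 arrays (horizontal axis, line and replicate; blue SN12C, orange LM1, red LM2). Dark lines join the brightest probe set of a gene and grey lines the others, and the dotted line marks the filter value of 6.03. HIF1A is level across the arrays, NDRG1 is highest in LM1 and lowest in LM2, and VHL has its lowest value on the LM1 array.

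The arrays differed in RNA quality measures and in how closely replicates matched. The control probe sets for the 3' and 5' ends of beta-actin differed by 3.43 log2 units in LM1, with the 3' end brighter, against 0.07 to 0.47 on the other 4 arrays. For GAPDH this 3' excess was 2.09 in LM1, against -0.07 to 0.14. The SN12C replicates stood a median of 0.28 log2 units apart over the tested probe sets, and the LM2 replicates 0.07. Replicates are called biological in the labels and nothing more is said of them. The p-values therefore reflect only how far apart these arrays lie, which may be technical. The number of arrays limits the precision: an exact permutation test of 2 against 2 cannot go below p = 0.333, two-sided.

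HIF1A, the alpha subunit found in most tissues, was read by a single probe set (200989_at). It read 13.39 and 13.49 in LM2, against 13.54 and 13.64 in SN12C, and 13.49 in LM1. Both LM2 arrays lay below both SN12C arrays, but the whole spread over the 5 arrays was 0.25 log2 units, and the difference of -0.15 ± 0.09 (SE) did not pass in limma (adjusted p = 0.679).

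EPAS1, which encodes the alpha subunit HIF-2alpha that drives many renal carcinomas, showed the largest difference among the axis genes. Its brightest probe set (200878_at) read 10.32 and 10.45 in LM2, against 10.73 and 11.67 in SN12C. The means were 10.38 ± 0.09 in LM2 and 11.20 ± 0.66 in SN12C (SD, n = 2 each), a ratio of 0.568. LM2 was lower on both arrays, yet the SN12C arrays were themselves 0.94 apart, more than the difference of -0.82 ± 0.38 (SE), which did not pass in limma (adjusted p = 0.647). LM1 read 10.93, between the SN12C arrays. A second probe set of EPAS1 (200879_s_at) read 7.37 and 7.23 in LM2, against 6.49 and 8.43 in SN12C. Here both LM2 arrays lay between the SN12C arrays, and the LM1 array was the lowest of all at 5.585. The LM1 array is the one with the large 3' excess, whose part in this value was not tested.

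ARNT, the stable partner that both alpha subunits need to bind DNA, had 5 tested probe sets. The brightest (218222_x_at) read 8.70 and 8.65 in LM2, against 8.92 and 8.63 in SN12C, and 8.50 in LM1, so LM2 and SN12C overlapped. A near-level one (218221_at) gave 8.16 on 3 arrays, 8.06 on LM2 replicate 2 and 8.18 on LM1. LM2 lay below SN12C without overlap in 231016_s_at, at 6.12 and 6.09 in LM2 against 6.62 and 6.46 in SN12C, close above the filter value. Its difference of -0.44 ± 0.09 (SE) had the lowest unadjusted p of the axis for LM2 against SN12C (limma adjusted p = 0.416). The same held for 230619_at, with 7.30 and 7.20 in LM2 against 7.44 and 7.74 in SN12C. The fifth went the other way: 210828_s_at averaged 0.46 higher in LM2, with 7.44 and 7.34 in LM2 against 6.44 and 7.42 in SN12C. That gap came from SN12C replicate 1, and against SN12C replicate 2 alone LM2 stood at -0.029. Probe sets of ARNT thus gave differences of both signs, and 0 of 5 passed.

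VHL, the substrate-binding subunit of the ligase that removes HIF alpha proteins, had 1 tested probe set (1559227_s_at). It read 7.21 and 7.38 in LM2, against 7.81 and 7.27 in SN12C, so the lines overlapped (difference -0.25 ± 0.24 SE, limma adjusted p = 0.689). The LM1 array read 6.14, the lowest of the 5, and LM1 minus SN12C was -1.40 (limma adjusted p = 0.127). The part of the 3' excess of the LM1 array in this value was not tested. VHL message was thus measured above the filter value on all 5 arrays. A second VHL probe set (203844_at) lay between 4.18 and 4.30 on every array, under that value.

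EGLN1, also called PHD2, the main oxygen-sensing prolyl hydroxylase in most cells and itself a HIF target, had 4 probe sets, all tested. The brightest (223046_at) read 11.33 and 11.32 in LM2, against 11.12 and 11.69 in SN12C, and 11.10 in LM1. The same arrangement was seen in all 4: both LM2 arrays lay between the SN12C arrays, with replicate 1 of SN12C low and replicate 2 high. Replicate 1 of SN12C stood below replicate 2 by 0.57 (223046_at), 1.14 (221497_x_at), 1.79 (224314_s_at) and 1.53 (223045_at). The differences between LM2 and the SN12C mean ran from -0.08 to 0.33, small beside those gaps, and 0 of 4 passed (lowest limma adjusted p = 0.817).

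**Figure D2:**
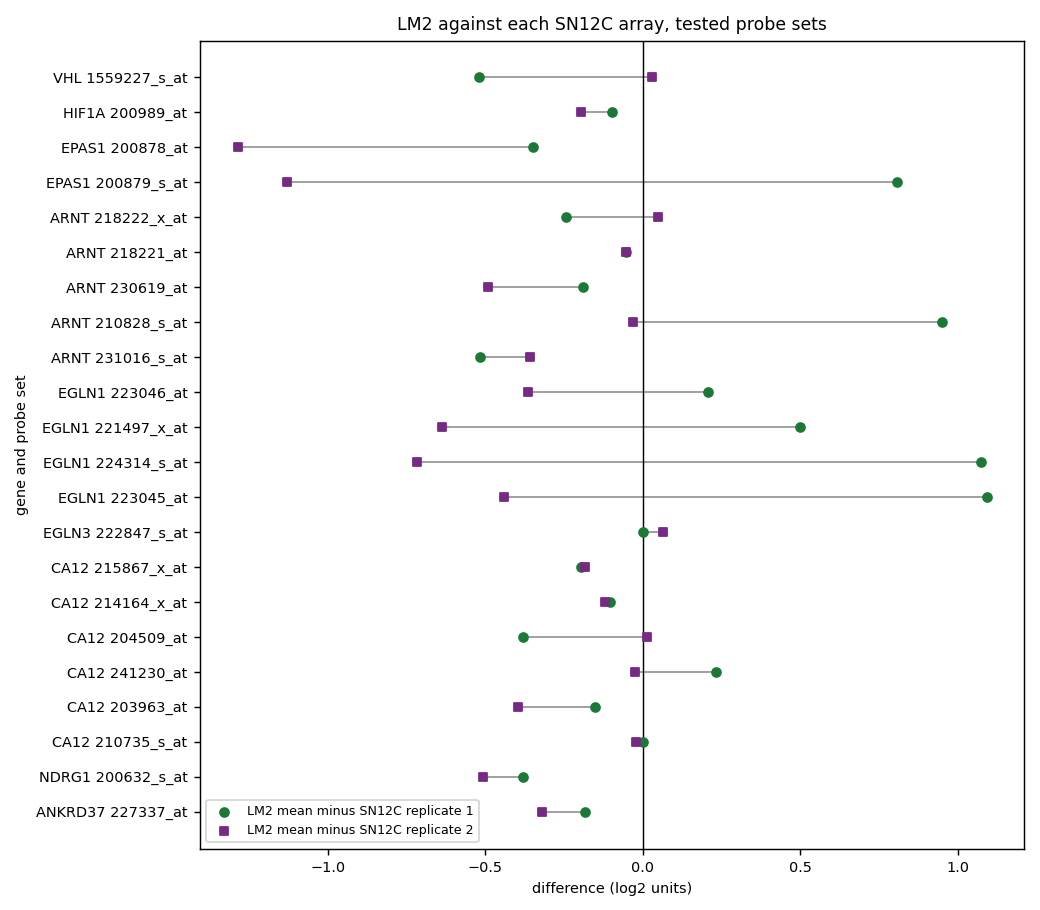
Mean of both LM2 arrays minus SN12C replicate 1 (green circles) and minus SN12C replicate 2 (purple squares), in log2 units, for the 22 tested probe sets of the axis (vertical axis, gene and probe set). The 4 EGLN1 probe sets straddle 0, while NDRG1, ANKRD37 and the brightest EPAS1 probe set lie below 0 against both arrays.

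Because the SN12C arrays stand apart, each probe set was also set against them one by one. Of the 22, 8 differed by at least 0.5 log2 units between the SN12C replicates and 0 did so between the LM2 replicates, where the largest gap was 0.33. The median of LM2 was -0.10 against SN12C replicate 1 and -0.26 against replicate 2. For EPAS1 (200878_at) LM2 stood at -0.35 against replicate 1 and -1.29 against replicate 2. For NDRG1 the values were -0.38 and -0.51, for ANKRD37 -0.18 and -0.32, and for HIF1A -0.10 and -0.20. For these 4 probe sets the sign was fixed by the lack of overlap already given, and the values show only its size. With 0 counted as a sign of its own, the sign differed between the SN12C arrays in 12 of the 22, against 12753 of all 33376 tested. It turned in all 4 probe sets of EGLN1 and in the fainter one of EPAS1 (200879_s_at), at 0.81 against replicate 1 and -1.13 against replicate 2. The rest of the 12 belonged to VHL, ARNT, CA12 and EGLN3.

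Among the target genes of the axis, LM2 and SN12C arrays did not overlap for NDRG1, ANKRD37 and the brightest probe set of CA12, and EGLN3 stayed near the filter value. The hypoxia-inducible factors bind a short core, ACGTG or GCGTG. To show where it lies, the 250 bases before the start site are given for the target genes, from RefSeq with build GRCh38.p14, read 5′ to 3′ on the gene's strand, with each match on either strand in capitals. NDRG1 is not shown, nor is CA9, which was not analysed.
EGLN1, chr1:231422288-231422537, minus strand: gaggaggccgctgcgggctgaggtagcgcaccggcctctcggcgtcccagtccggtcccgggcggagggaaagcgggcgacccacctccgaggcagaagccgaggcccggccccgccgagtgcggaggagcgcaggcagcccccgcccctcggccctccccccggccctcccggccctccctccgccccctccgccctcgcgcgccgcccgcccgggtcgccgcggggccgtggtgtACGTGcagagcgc
EGLN3, chr14:33951075-33951324, minus strand: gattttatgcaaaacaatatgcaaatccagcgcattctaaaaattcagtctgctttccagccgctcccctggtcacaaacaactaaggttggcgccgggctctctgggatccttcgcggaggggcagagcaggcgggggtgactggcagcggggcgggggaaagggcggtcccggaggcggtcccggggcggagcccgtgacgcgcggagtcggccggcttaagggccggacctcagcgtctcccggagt
CA12, chr15:63381847-63382096, minus strand: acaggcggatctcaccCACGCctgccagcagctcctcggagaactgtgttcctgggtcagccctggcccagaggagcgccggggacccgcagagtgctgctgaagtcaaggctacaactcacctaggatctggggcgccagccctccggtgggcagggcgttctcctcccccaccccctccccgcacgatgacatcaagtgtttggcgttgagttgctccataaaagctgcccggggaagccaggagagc
ANKRD37, chr4:185396591-185396840, plus strand: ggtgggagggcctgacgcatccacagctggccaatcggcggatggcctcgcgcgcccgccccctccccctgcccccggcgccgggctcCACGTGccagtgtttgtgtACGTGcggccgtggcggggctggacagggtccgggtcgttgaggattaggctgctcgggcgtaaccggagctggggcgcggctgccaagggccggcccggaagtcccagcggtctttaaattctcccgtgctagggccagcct
ANKRD37 held 3 matches, a pair overlapping on opposite strands in the palindrome at -162 and -161 and another at -143 relative to the start site. In EGLN1 there was 1 match, ending a few bases before the start site (-13). CA12 held 1 match on the opposite strand at -234, and EGLN3 held 0 in this window. Of 35097 windows of this length, 43.2% held at least 1 match, and 19.3% at least 2. A match is a string of letters, not a site shown to be bound, and a window without one says nothing of the factors.

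NDRG1, a cytoplasmic protein induced by hypoxia and by cell stress, gave the clearest separation of the 3 lines. Its probe set (200632_s_at) read 8.07 and 7.93 in LM2, against 8.38 and 8.51 in SN12C. LM2 was lower on both arrays, with an SD of 0.10 in LM2 and 0.09 in SN12C (n = 2 each), and the ratio of LM2 to SN12C was 0.735. The difference of -0.44 ± 0.10 (SE) exceeded the spread within either pair but did not pass over all probe sets (limma adjusted p = 0.428). LM1 read 8.85, above all other arrays. It stood 0.41 above the SN12C mean (limma adjusted p = 0.199), and LM2 stood -0.85 from LM1 (limma adjusted p = 0.116, the lowest of the axis for that comparison). The LM1 array is the one with the large 3' excess, whose part in this high value was not tested. Of all tested probe sets, 38.7% had LM1 above both SN12C arrays.

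ANKRD37, a small ankyrin-repeat protein whose promoter is shown above and which is known as a HIF-1 target, read 7.50 and 7.83 in LM2 (227337_at), against 7.85 and 7.99 in SN12C, and 8.06 in LM1. The order of the lines was that of NDRG1, with LM1 highest and LM2 lowest, and the part of the 3' excess of the LM1 array was again not tested. LM2 replicate 2 and SN12C replicate 1 nearly touched, closer than the 0.33 between the LM2 replicates, and the difference of -0.25 ± 0.16 (SE) did not pass (limma adjusted p = 0.679).

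CA12, a membrane carbonic anhydrase that acidifies the space outside the cell, had 6 tested probe sets, all between 6.43 and 7.59. The brightest (215867_x_at) read 7.26 and 7.29 in LM2, against 7.47 and 7.46 in SN12C, and 7.59 in LM1. LM2 was below SN12C without overlap in 3 of the 6, against 13.0% of all tested probe sets, and probe sets of 1 gene are not independent. The largest of these differences was -0.27 ± 0.13 (SE, 203963_at). Another, 241230_at, averaged 0.11 higher in LM2, with overlap. In 210735_s_at the value 6.62 was identical on 4 of the arrays. None of the 6 passed (lowest limma adjusted p = 0.554).

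EGLN3, or PHD3, a hydroxylase whose message is strongly raised by hypoxia in many cells, had 1 tested probe set (222847_s_at). It read 6.66 on both LM2 arrays, against 6.66 and 6.60 in SN12C, and 6.62 in LM1, a range of 0.06 over all 5 arrays. The other EGLN3 probe set lay between 4.73 and 5.08, under the filter value. No difference between the lines was detectable for EGLN3 at this signal (limma adjusted p = 0.847). In all, 6 of the 22 tested probe sets had identical values on at least 2 arrays.

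The first lung generation, LM1, was then set against SN12C, its single array being assumed to vary like the other lines. Of the 22 probe sets 0 passed in limma (lowest adjusted p = 0.127, for VHL), as did 0% of all tested, and 3 of the 22 had an unadjusted p under 0.05, against 7757 of all 33376. LM1 lay below both SN12C arrays in 9 of the 22, or 40.9%, against 27.7% of all tested, and above both in 6, or 27.3%, against 38.7%. The 9 lower ones included VHL, the fainter EPAS1 probe set (200879_s_at), ARNT 210828_s_at at 5.40 and EGLN1 223045_at at 5.64. The 6 higher ones were NDRG1, ANKRD37, 2 probe sets of ARNT and 2 of CA12. Whether the large 3' excess of the LM1 array had a part in these lower and higher values was not tested. For LM2 against LM1, 5 of the 22 had an unadjusted p under 0.05, against 6974 of all tested, and 0 passed, as did 0% of all tested (lowest adjusted p = 0.116, for NDRG1). LM1 and LM2 are both set against the same SN12C arrays, so these 2 comparisons are not independent.

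To place the axis genes among their pathway, 55 other genes were examined through their brightest probe set, 12 regulators and 43 further HIF targets. Of these 50 were tested, 3 targets were not analysed here, and 2 genes were under the filter. None of the 50 passed for LM2 against SN12C in limma (lowest adjusted p = 0.328), and 10 had an unadjusted p under 0.05, against 1737 of 15024 genes tested through 1 probe set each. For the targets, both LM2 arrays lay below both SN12C arrays in 17 of 39, or 43.6%, against 14.1% of all genes, and above in 5, or 12.8%, against 25.3% of all genes. The median difference of the targets was -0.12, and that of all genes 0.03. These lists were chosen with earlier results of these data known, so their shares and medians are no independent support. Against SN12C replicate 1 alone the targets' median was -0.049 and against replicate 2 -0.19, and it was -0.078 with all probe sets of a gene averaged. The regulators were split, 3 of 11 lower and 4 of 11 higher without overlap, with a median of 0.05 that was 0.19 when set against SN12C replicate 1 alone and -0.016 for replicate 2 alone. In the axis itself the brightest probe sets of 5 of 9 genes were lower and 0 higher, with a median of -0.19.

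**Figure D3:**
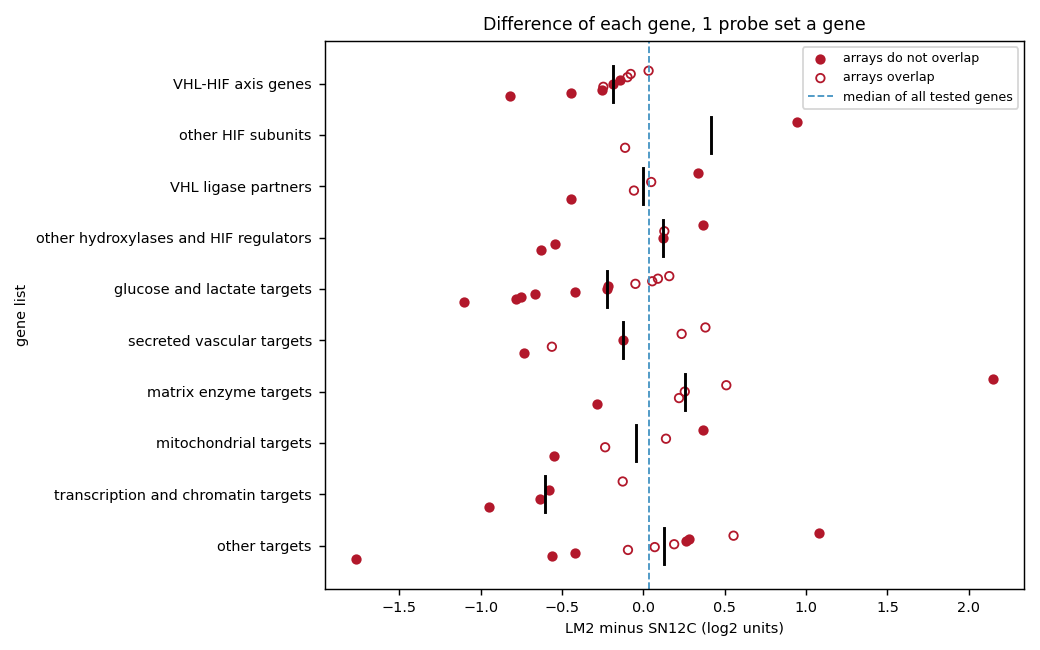
LM2 minus SN12C in log2 units (horizontal axis) for each tested gene of the axis and of 9 pathway lists (vertical axis), 1 probe set a gene. Filled points mark genes whose LM2 and SN12C arrays do not overlap, black bars are list medians, and the dashed line is the median of all tested genes at 0.03. Glucose and lactate genes lie mostly left of it, and LOX stands apart at 2.15 among the matrix enzymes.

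Among the regulators, ARNT2, a relative of ARNT, read 6.42 and 6.06 in LM2, against 5.28 and 5.31 in SN12C, with LM1 at 5.93. The SN12C values lay under the filter value, so the size of its difference, 0.94 ± 0.15 (SE, limma adjusted p = 0.369), is uncertain. CUL2, the scaffold of the VHL ligase, was lower in LM2 at 10.51 and 10.62, against 10.81 and 11.21 in SN12C, and LM1 was lowest at 10.06. Its difference of -0.44 was -0.64 without SN12C replicate 1 and -0.25 without replicate 2, and its other probe set gave -0.62. CITED2 and EP300, a competitor and a co-activator of HIF, had differences of -0.63 and -0.54. Both rested on SN12C replicate 1, which read 11.66 for CITED2 and 8.76 for EP300, while replicate 2 read 10.74 and 7.77, close to the LM2 arrays. Without SN12C replicate 1 the differences were -0.17 for CITED2 and -0.045 for EP300. With all arrays, other probe sets gave -0.29 and 0.10 for CITED2 and -0.34 for EP300.

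Of the glucose and lactate genes 7 of 11 were lower and 0 higher without overlap, against 14.1% and 25.3% of all genes. Their median was -0.22, and -0.10 with all probe sets of a gene averaged. The 4 genes with overlap included LDHA at 0.16, ALDOA at 0.09 and PGK1 at 0.05, and other probe sets of PGK1 gave 0.15 to 0.55. ENO1, among the lower ones at -0.22, had other probe sets at 0.08, -0.04 and 0.06. PDK1, the kinase that keeps pyruvate out of mitochondria, read 7.42 and 7.72 in LM2, against 8.67 and 8.68 in SN12C, and 8.67 in LM1. Its difference was -1.10 ± 0.14 (SE), the largest of the list by brightest probe sets (limma adjusted p = 0.334). PFKFB3, which raises the allosteric activator of phosphofructokinase, read 8.27 and 8.32 in LM2, against 8.95 and 8.97 in SN12C, and 9.06 in LM1 (limma adjusted p = 0.328). For both genes LM1 stood with SN12C and only LM2 was low. SLC2A3, the glucose transporter GLUT3, read 8.87 and 8.61 in LM2, against 9.60 and 9.39 in SN12C, and 8.87 in LM1, and its other probe sets gave -0.81 and -1.58. HK2 (hexokinase 2) had a difference of -0.79, which was -0.46 without SN12C replicate 1, and its fainter probe sets gave 0.22 and 0.26. A second probe set of PDK1 gave -0.38.

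**Figure D4:**
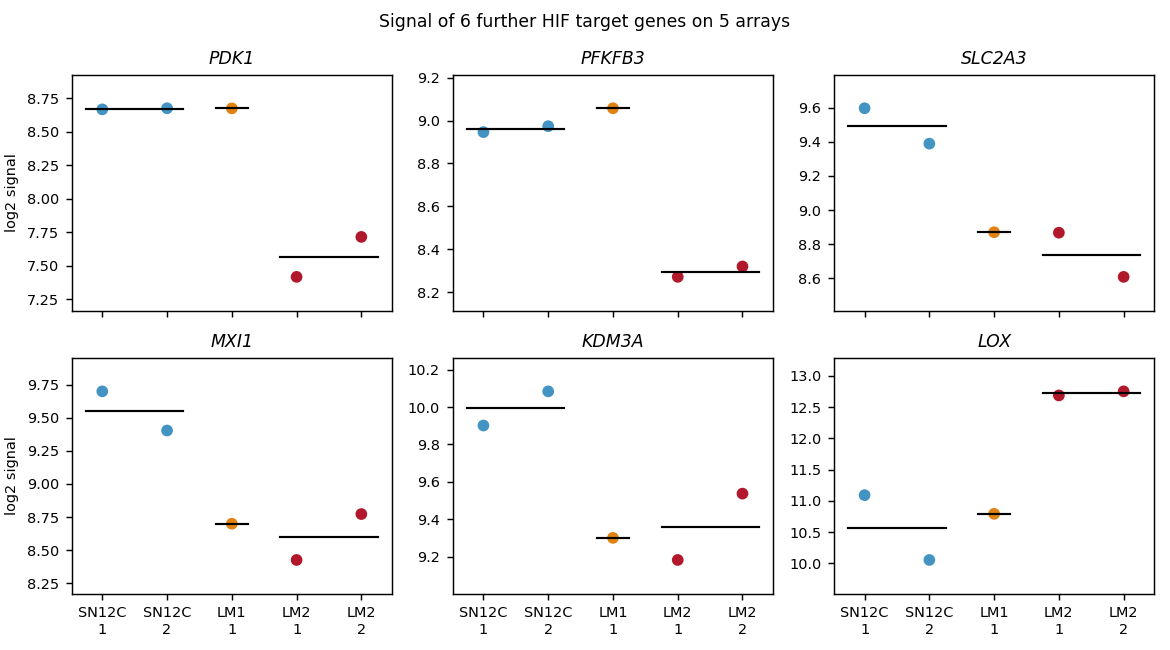
Log2 signal (vertical axes, each with its own range) of 6 further HIF targets on the 5 arrays (horizontal axis, line and replicate; blue SN12C, orange LM1, red LM2), with black bars at each line's mean. PDK1 and PFKFB3 are low on both LM2 arrays only, SLC2A3, MXI1 and KDM3A are low on the LM1 and LM2 arrays, and LOX is high on both LM2 arrays.

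The transcription and chromatin targets had 3 of 4 tested genes lower and 0 higher without overlap, against 14.1% and 25.3% of all genes, and a median of -0.61. MXI1, an antagonist of MYC, read 8.43 and 8.77 in LM2, against 9.70 and 9.40 in SN12C, and 8.70 in LM1 (difference -0.95 ± 0.19 SE, limma adjusted p = 0.407). KDM3A, a histone demethylase, read 9.18 and 9.54 in LM2, against 9.90 and 10.08 in SN12C, and 9.30 in LM1. BHLHE40, a repressor of transcription, differed by -0.58 in its brightest probe set and -0.10 in the other. The first value was -0.15 without SN12C replicate 1 and -1.02 without replicate 2. LM1 and LM2 both stood below SN12C in these 3 genes.

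The remaining target lists held genes on both sides. The median of the matrix enzyme targets was 0.25. Of these, LOX, a collagen cross-linking enzyme, was higher in LM2, at 12.69 and 12.75, against 11.09 and 10.05 in SN12C, and 10.79 in LM1. Its difference was 2.15 ± 0.42 (SE, limma adjusted p = 0.395), and its other probe sets gave 1.63 and 2.33. LOX is also made by fibroblasts. Over the 5 fibroblast markers summed log2 signals were 37.38 to 37.40 in LM2, against 32.75 to 35.30 in SN12C. That came mainly through COL3A1 (10.94 and 11.11 in LM2, against 6.98 and 8.98 in SN12C), while LUM stayed at or below 4.37. The markers did not move together: LM2 minus SN12C was 3.04 for COL3A1, 0.24 for PDGFRB, 0.14 for PDGFRA, -0.055 for DCN and -0.011 for LUM. The part of these differences in the LOX values was not tested. TMEM45A, a membrane protein, was also higher, by 1.08 ± 0.42 (SE, limma adjusted p = 0.585), which was 0.58 without SN12C replicate 1 and 1.59 without replicate 2. DDIT4, a stress-induced inhibitor of mTOR, read 8.03 and 8.43 in LM2, against 11.08 and 8.91 in SN12C, so most of its difference of -1.76 came from SN12C replicate 1, without which it was -0.68. BNIP3, a mitophagy receptor, differed by -0.55, which was -0.14 without SN12C replicate 2 and -0.96 without replicate 1. The secreted protein STC2 differed by -0.73, which was -1.08 and -0.38 in the same order. With all arrays, other probe sets gave -0.26 for BNIP3 and -1.41 for STC2. PPP1R3C, a glycogen-targeting phosphatase subunit, differed by -0.56. None of these passed with all 5 arrays. Without SN12C replicate 2 the differences were -0.48 for PPP1R3C, 1.63 for LOX, -0.65 for PFKFB3, -1.11 for HK2 and -1.04 for EP300. Without SN12C replicate 1 they were -0.64 for PPP1R3C, 2.66 for LOX, -0.68 for PFKFB3, -0.46 for HK2 and -0.045 for EP300.

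Some genes outside the pathway had profiles much like those of single axis genes. By the brightest probe set of each gene, the regulator and the target with the largest SD over the 5 arrays were VHL (0.62) and NDRG1 (0.36), and likeness was the root mean square difference between profiles centred on their own means, over 15023 other genes. Nearest to VHL were TMED4 (0.10 log2 units), PRKCI (0.13) and SRGAP1 (0.14), all lowest on the LM1 array. Nearest to NDRG1 were FAF1 (0.06), RAB26 (0.06) and C3orf52 (0.07), all highest in LM1. With 5 arrays and so many genes, close profiles are a description only.

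The lines were checked against markers of their own and of other cell types. Of 6 renal epithelial and carcinoma markers 5 were measured, and all 5 passed the filter, PAX8 between 9.19 and 9.82 and KRT18 between 14.04 and 14.72. PAX2 lay near the filter value at 6.34 to 6.46. Of 5 leukocyte markers 4 were measured: PTPRC and LYZ stayed at or below 5.36, under the filter value, while CD3E reached 7.05 and CD14 7.16. Of 5 endothelial markers CDH5 stayed at or below 4.93, and the 4 others passed the filter, with highest values of 6.70 (VWF) to 7.65 (PECAM1). The 4 lung epithelial markers ranged from 4.98 to 9.04 and the 2 measured erythroid ones from 6.55 to 7.76. Over the 5 endothelial markers, summed signals were 30.86 to 31.01 in LM2, against 31.98 to 33.18 in SN12C. The markers did not move together: LM2 minus SN12C was -1.42 for KDR, -0.38 for TEK, -0.22 for PECAM1, -0.013 for CDH5 and 0.38 for VWF. EPAS1 is abundant in endothelial cells, and the part of these differences in its value was not tested.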

How the data were processed

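RNA of 5 samples was hybridised to Affymetrix arrays. The authors deposited log2 values, already summarised to 1 number for every probe set on each array. RMA and Partek are named, per the submitters' processing notes; their versions are not given in the sources used here. By design RMA gives all arrays nearly the same distribution, so a difference in total signal is not visible. Array medians lay between 6.51 and 6.57. Of 54675 probe sets 62 controls were left out. The platform table named 41097 with 1 gene, 41043 of them matched to RefSeq by gene identifier. One mean per line was fitted to 33376 probe sets with limma 3.58.1 (lmFit and eBayes, 2 residual and 1.2 prior degrees of freedom) under R 4.3.3, and the script was tested on simulated data. P-values were adjusted by Benjamini-Hochberg with a threshold of 0.05. The brightest probe set is the one with the highest mean. Of the pathway lists, up to 4 genes a list are named, those without overlap and at least 0.5 apart, or else the largest difference. CUL2 is the largest of its list. The members and lists were chosen with earlier results of these data known and are no independent support. Alternatives covered filter, probe sets, normalization, eBayes, arrays, replicates left out and a replicate block. Figures were drawn with matplotlib 3.10.9.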

Additional observations from a re-analysis of the deposited data

Results flagged for a closer look

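For 5 probe sets of the axis and 1 further target, LM1 lay above both SN12C arrays and both LM2 arrays lay below them. Of all tested probe sets, LM1 lay above both SN12C arrays in 38.7%, and both LM2 arrays lay below them in 13.0%. The share of all tested probe sets with both traits was not counted. LM2 minus LM1 was -0.85 log2 units for NDRG1 (limma adjusted p = 0.116), -0.64 for ARNT 230619_at (adjusted p = 0.194), -0.40 for ANKRD37 (0.38), -0.31 for CA12 215867_x_at (0.192) and -0.30 for CA12 214164_x_at (0.258). For PFKFB3 it was -0.76 (limma adjusted p = 0.106). The test of the difference between the generations passed for none of the 6, and LM1 has 1 array. That array is the one with the large 3' excess, whose part in these values was not tested.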

How the results depend on the processing

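The count of probe sets called and the count of axis probe sets called for LM2 against SN12C stayed at 0 under 12 of 13 alternatives each. Over the fits without 1 replicate the first ran from 0 to 8105 and the second from 0 to 4, both highest without SN12C replicate 2, where the spread comes from the LM2 pair alone. In these fits the first count was out of 33376 probe sets and the second out of 22. The axis probe sets called without SN12C replicate 2 did not share a direction. LM2 minus SN12C was then -0.52 for ARNT 231016_s_at and -0.38 for CA12 204509_at. It was 0.21 for EGLN1 223046_at and 0.50 for EGLN1 221497_x_at. In these probe sets the LM2 replicates were identical or nearly so. Their SD was 0.021 for ARNT 231016_s_at, 0.003 for EGLN1 223046_at, and 0 for CA12 204509_at and EGLN1 221497_x_at. For LM1 against SN12C the count over all probe sets ran from 0 to 10386 without 1 replicate, and was 1171 after quantile normalization again and 1529 with arrays centred on their medians. For LM2 against LM1 it ran from 0 to 5776, and was 325, 665 and, with only these lines fitted, 5776. The cause was not tested, except that fits without an SN12C array take their spread from the LM2 pair.

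With the replicate number as a block, run for LM2 against SN12C only, the counts of calls stayed at 0. Numbers did not pair the arrays: deviations of same-numbered SN12C and LM2 arrays correlated at 0.067 across probe sets.

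Single differences, for LM1 only those of each gene's brightest probe set, kept their direction except as follows. Without SN12C replicate 2 and replicate 1 in turn, LM2 minus SN12C was -0.52 and 0.029 for VHL, 0.81 and -1.13 for EPAS1 200879_s_at, -0.24 and 0.047 for ARNT 218222_x_at, and 0.95 and -0.029 for ARNT 210828_s_at. For EGLN1 it was 0.21 and -0.36 (223046_at), 0.50 and -0.64 (221497_x_at), 1.07 and -0.72 (224314_s_at), and 1.09 and -0.44 (223045_at). For CA12 it was -0.38 and 0.014 (204509_at), and 0.23 and -0.023 (241230_at). LM1 minus SN12C was 0.20 and -0.74 for EPAS1 200878_at and -0.043 and 0.021 for EGLN3. EGLN3 also turned to -0.035 (LM2) with arrays centred and to 0.040 (LM1) after quantile normalization. LM2 minus SN12C came to 0 without SN12C replicate 2 for EGLN3 and CA12 210735_s_at, and without LM2 replicate 2 for ARNT 218221_at. Signals near 6.03 limit what can be said of EGLN3.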
